A study of Mus musculus with 4 samples.

Results

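The report concerns 10 mouse genes of the Wnt signalling pathway in the atrioventricular canal of the embryonic heart: the R-spondin ligand gene Rspo3, the secreted Wnt-binding proteins Sfrp1, Sfrp2, Sfrp5 and Wif1, the Dickkopf family member Dkk3, the ligand gene Wnt2, the receptor gene Fzd1, and Axin2 and Lef1, which read out canonical Wnt signalling. They were taken by gene name from an array that named 27670 genes, of which 19091 gave a usable signal, and all 10 were among these. Their 14 probes made up a small part of the 41174 probes on the array, and 13 of the 14 passed the filter on dim probes. The 10 genes were picked with their ratios on these same arrays known. Their ratios are therefore given as a description, with no test.

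Tissue of the canal (AVC) was dissected from embryos at e10.5, and RNA from 5 hearts was pooled for each sample. The mutant pools came from Tbx3 hypomorphic embryos, labelled Tbx3 mutant, and the control pools from wild type embryos. Both were on a mixed background of 50% Sv129 and 50% C57Bl6. Tbx3 encodes a T-box repressor that is expressed in the canal and the conduction system, and a hypomorphic allele leaves some gene function. Each of 4 arrays carried 1 mutant pool in red (Cy5) and 1 control pool in green (Cy3), always in that orientation, so dye bias of single genes and genotype cannot be told apart.

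Wnt ligands bind Frizzled receptors and LRP co-receptors on the cell surface, and in the canonical branch this stabilises beta-catenin, which acts with TCF/LEF factors on target genes. R-spondins bind LGR receptors and keep the ligases that remove Frizzled receptors from acting, and so raise the response to a Wnt ligand. Secreted Frizzled-related proteins and WIF1 bind Wnt ligands outside the cell. In the canal, canonical Wnt signalling is known to act in endocardial cushion formation and in the identity of canal myocardium.

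The values for Rspo3, Sfrp2 and Dkk3, the genes with the largest mean differences, rest on the probes below. The first 30 bases of each 60-base probe are given, 5′ to 3′ and without capitals because no base is singled out. Positions are those of the array files (build mm7). No mm7 annotation was used, so exon or UTR positions are not given.
Rspo3, brighter probe, chr10:29285381-29287100, minus strand: cggaactcgatatccagatataaataaatg
Rspo3, second probe, chr10:29233614-29233672, minus strand: agtgtttcttccataaatccatcattagct
Sfrp2, chr3:83878918-83878977, plus strand: tcggcatctaagtcttcaaacatttcgttg
Dkk3, chr7:108032840-108032899, minus strand: gaatgaaatttgcaaagtcgcttagcaaca
The brighter Rspo3 probe covered 1720 bases of the genome with its 60 bases, so its sequence was split there. It lay 51708 bases from the second Rspo3 probe, and the 2 probes do not overlap.

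One array stood apart from the rest. Across genes, the log2 ratios of array 2 correlated with those of the other arrays at r = 0.07, -0.06 and -0.02, against 0.25 to 0.66 among arrays 1, 3 and 4, and their SD was 0.49 on array 2 against 0.26 to 0.29. Control pool 2 carried high levels of fibrous stroma markers, with a mean log2 level of 14.75 over 8 genes against 12.10 to 12.23 in the other control pools. It was also high in uterine markers, at 10.34 over 7 measured of 10 genes against 7.70 to 7.92, and in leukocyte markers, at 10.32 over 8 genes against 8.60 to 8.68. Pgr, Hoxd10 and Emx2 of the uterine list did not pass the filter. The results below are given on 4 arrays and, where stated, again without array 2. Heart muscle markers were bright in every pool, at a mean log2 level of 15.88 to 16.27 in mutant pools and 15.62 to 15.95 in control pools. Tbx3, the mutated gene, was lower on every array by its brighter probe, at a log2 ratio of -1.35, -1.40, -1.43 and -1.21 (limma adjusted p = 0.0454). It was the single gene of 19091 past the threshold of 0.05 in limma on 4 arrays. A second, dim Tbx3 probe gave -0.22, -0.14, -0.23 and 0.03.

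**Figure D1:**
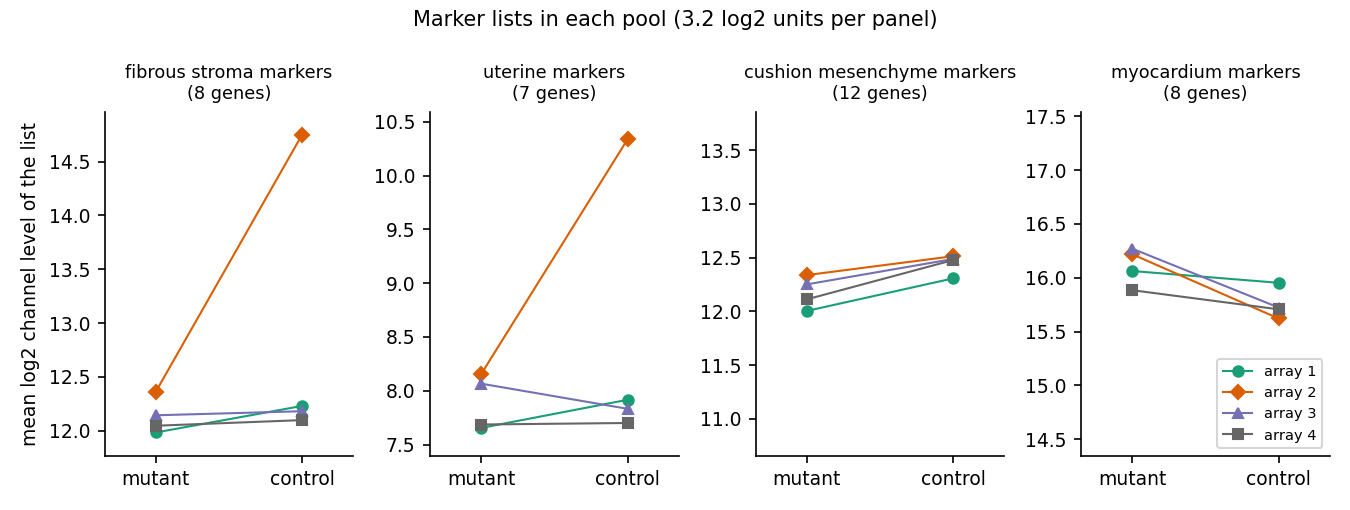
Mean log2 channel level of 4 marker lists in each mutant pool (left) and control pool (right), with a line for each array. Control pool 2 is at 14.75 for fibrous stroma markers and 10.34 for uterine markers, apart from the other pools, while cushion markers lie at 12.00 to 12.34 in mutant pools and 12.31 to 12.51 in control pools.

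By sign, 4 of the 10 genes were lower in the mutant pool on all 4 arrays (Rspo3, Sfrp2, Axin2 and Lef1), a pattern that 12.6% of all tested genes showed. Dkk3 and Sfrp1 were higher on all 4, as were 12.3% of all tested genes, and the other 4 changed sign between arrays. Centring each array's ratios on their median in place of loess moved the median log2 ratio of all genes to 0.23, and 2007 of 19091 genes were then lower and 9589 higher on all 4 arrays. Of the 10 genes, 2 were lower and 4 higher on all 4 arrays with that centring. The centring used all non-control spots, dim ones included, whereas the 0.23 is a median over the tested genes only. Unlike loess, median centring leaves any trend of the ratio with brightness in place. The median of the 10 mean log2 ratios was -0.05, beside 0.001 over all tested genes. These ratios take part in how the genes were picked, and nothing is read from their counts.

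**Figure D2:**
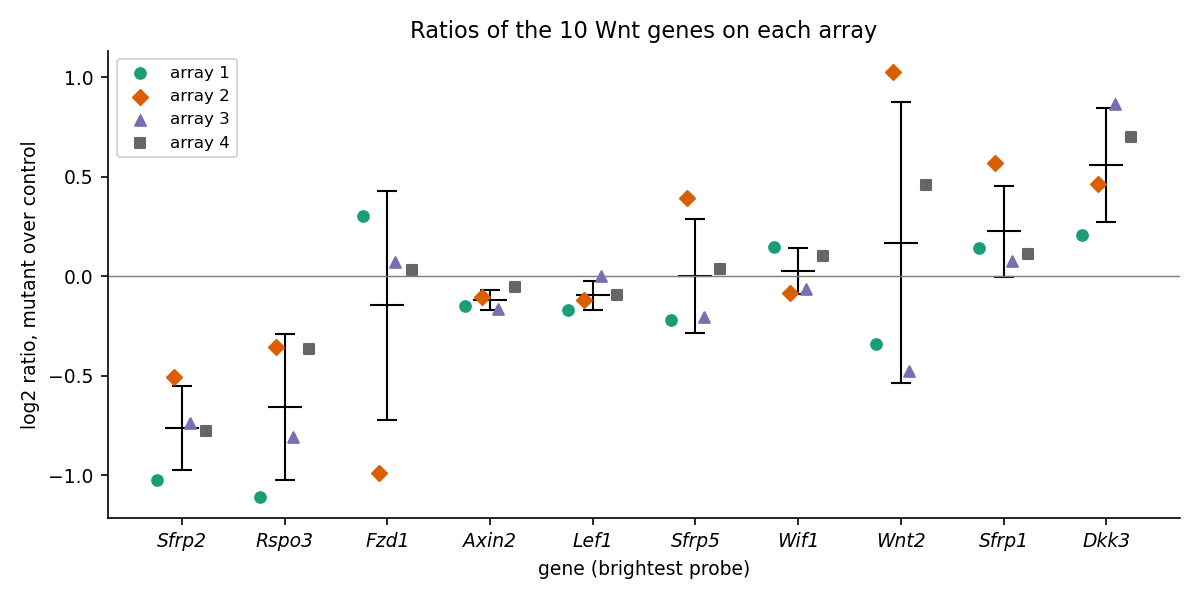
Log2 ratio of mutant over control for the brightest probe of each of the 10 genes, with 1 point per array and the mean ± SD over 4 arrays in black. Sfrp2 and Rspo3 lie below 0 and Dkk3 above 0 on every array, while the Fzd1 point of array 2, at -0.99, lies apart from its other points, and Wnt2 runs between -0.48 and 1.03.

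Rspo3, the ligand that sensitises cells to Wnt, was lower in the mutant pools by both of its probes. The brighter probe had log2 levels of 7.98, 8.60, 8.44 and 8.88 in mutant pools 1 to 4, against 9.09, 8.95, 9.25 and 9.25 in control pools 1 to 4. Every mutant pool was below every control pool, a separation seen in 5.11% of all genes, and mutant pool 1 was the lowest. The log2 ratios were -1.11, -0.35, -0.81 and -0.37 on arrays 1 to 4, with a mean of -0.66 ± 0.37 (SD, n = 4), a mutant level 0.633 times that of the control. Without array 2 the mean was -0.76. Among all tested genes this was the 168th lowest mean.

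The second Rspo3 probe gave log2 levels of 7.50, 8.01, 7.84 and 7.94 in mutant pools, against 8.61, 8.38, 8.91 and 8.75 in control pools. Again no mutant pool reached the lowest control pool. Its log2 ratios were -1.11, -0.37, -1.07 and -0.81, with a mean of -0.84 ± 0.34 (SD, n = 4), or -0.99 without array 2. The probes matched closely on arrays 1 and 2, while on array 4 the second probe was the lower, at -0.81 against -0.37. Both were well above background in both channels on all 4 arrays. In tissue pools such as these, fewer cells of a type and less RNA per cell cannot be told apart.

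**Figure D3:**
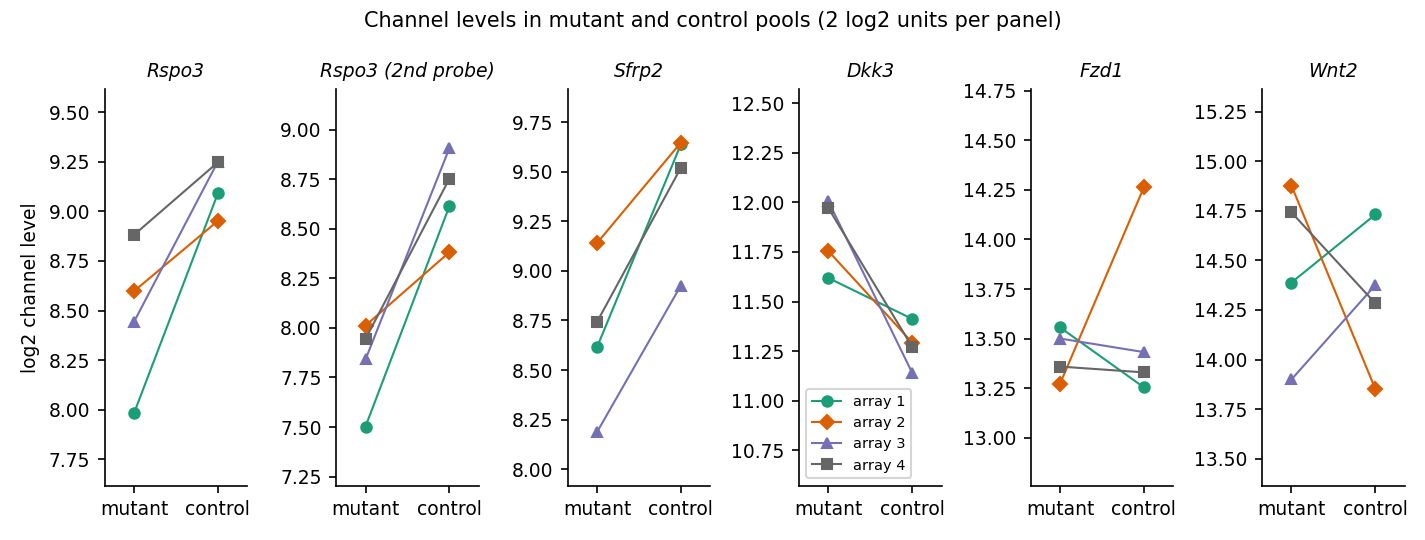
Log2 channel levels in mutant pools (left) and control pools (right) for both Rspo3 probes, Sfrp2, Dkk3, Fzd1 and Wnt2, with a line joining the pools on an array and an equal span on each axis. Mutant pools lie below all control pools for both Rspo3 probes and above them for Dkk3, and control pool 2 is high for Fzd1 at 14.26.

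The secreted Frizzled-related genes did not move together. Sfrp2 had log2 levels of 8.61, 9.14, 8.19 and 8.74 in mutant pools, against 9.64, 9.65, 8.93 and 9.52 in control pools. Each mutant pool was lower than the control pool on its array, but the groups overlapped because control pool 3, at 8.93, was below mutant pool 2, at 9.14. The log2 ratios were -1.02, -0.51, -0.74 and -0.78, with a mean of -0.76 ± 0.21 (SD, n = 4), a mutant level 0.590 times that of the control. This was the 105th lowest mean of all tested genes, and it was -0.85 without array 2.

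Markers of cushion mesenchyme, the cells of the endocardial cushions, had mostly negative mean log2 ratios after loess, while with median centring 8 of the 12 were positive and their median lay 0.01 above that of all genes. After loess their mean log2 level was 12.00 to 12.34 in mutant pools and 12.31 to 12.51 in control pools, and 9 of the 12 had a negative mean log2 ratio, with a median of -0.23. The brightest of them was Postn, which encodes the matrix protein periostin, at a mean log2 ratio of -0.94 ± 0.60 (SD, n = 4), and -0.64 without array 2. Has2, which encodes a hyaluronan synthase of the cushions, averaged -0.22 ± 0.27 and had both signs. Relative to the median of all genes under median centring, Postn lay at -0.67 and Has2 at 0.03. Erythroid markers, of the red blood cells held in the heart, had mean log2 levels of 16.11, 15.99, 15.44 and 15.83 in mutant pools, against 14.56, 15.30, 15.60 and 15.82 in control pools, over 7 genes. Control pool 1 was the lowest. The erythroid median log2 ratio was 1.86, 0.99, -0.22 and -0.004 on arrays 1 to 4. Array 1 also had the lowest Rspo3 and Sfrp2 ratios, whereas array 2, with the next highest erythroid median, had the least negative ratios of both genes. Without array 1 the mean log2 ratio was -0.51 for Rspo3 and -0.67 for Sfrp2. The part of cushion or blood cell content in the Rspo3 and Sfrp2 values was not tested.

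Sfrp1 was read by a pair of probes with 628 bases between them on chromosome 8. The brighter probe (chr8:22232957-22233016, plus strand) had log2 levels of 12.41, 13.32, 12.09 and 12.85 in mutant pools, against 12.26, 12.75, 12.01 and 12.74 in control pools. The pools overlapped widely, and the spread within a group exceeded the difference between groups. Its log2 ratios were 0.14, 0.57, 0.08 and 0.11, with a mean of 0.22 ± 0.23 (SD, n = 4) and of 0.11 without array 2, so that array 2 made up much of the mean. The second probe (chr8:22233645-22233704) gave -0.24, 0.27, -0.22 and 0.29, with a mean of 0.02 ± 0.30. The constant sign of Sfrp1 was thus a property of 1 of its probes.

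Sfrp5 (chr19:42092520-42092579, minus strand) averaged a log2 level of 7.58 ± 0.22 in mutant pools and 7.58 ± 0.09 in control pools (SD, n = 4 each). Its log2 ratios were -0.22, 0.39, -0.21 and 0.04, and the mean was -0.13 without array 2. Wif1 (chr10:120496251-120496310, plus strand) lay at 6.67 ± 0.11 in mutant pools and 6.65 ± 0.03 in control pools, with log2 ratios of 0.15, -0.08, -0.06 and 0.10. Wif1 was dim, at a mean log2 intensity of 6.66, so its small ratios do not show that its level was unchanged. Both Sfrp5 and Wif1 overlapped fully between groups, and their signs depended on the array.

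Dkk3, a divergent Dickkopf member that, unlike DKK1, is not an established Wnt antagonist, was the highest of the 10. Its log2 levels were 11.62, 11.75, 12.00 and 11.97 in mutant pools, against 11.41, 11.29, 11.14 and 11.27 in control pools. Every mutant pool was above every control pool, as for 3.89% of all genes. The log2 ratios were 0.21, 0.46, 0.87 and 0.70, with a mean of 0.56 ± 0.29 (SD, n = 4), a mutant level 1.47 times that of the control and the 197th highest mean of all tested genes. Without array 2 the mean was 0.59. Of the heart muscle markers, 6 of 8 had a positive mean log2 ratio, with a median of 0.35 after loess. With median centring their median lay 0.87 above that of all genes. These markers were bright, and that centring does not remove a trend with brightness, whose part in the 0.87 was not tested. The brightest heart muscle marker, Myl7, an atrial myosin light chain, averaged 1.04 ± 0.29 in log2 ratio after loess. Epicardium markers had a median log2 ratio of 0.19, with 6 of 8 positive. The part of either cell type in the Dkk3 value was not tested.

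Wnt2, a ligand expressed in early heart progenitors and in the inflow region, was bright in all pools and had no stable sign. Its probe (chr6:17929740-17929799, minus strand) gave log2 levels of 14.39, 14.88, 13.90 and 14.74 in mutant pools, against 14.73, 13.85, 14.38 and 14.28 in control pools. Mutant pools 2 and 4 were above their control pools and mutant pools 1 and 3 were below. The log2 ratios were -0.34, 1.03, -0.48 and 0.46, with a mean of 0.17 ± 0.71 (SD, n = 4) that became -0.12 without array 2.

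Fzd1, a Frizzled receptor gene, had a negative mean through 1 array. Its probe (chr5:4760009-4760068, minus strand) gave log2 levels of 13.56, 13.27, 13.50 and 13.36 in mutant pools, against 13.25, 14.26, 13.43 and 13.33 in control pools. Control pool 2 was the highest of the 8 pools, and the remaining pools overlapped. The log2 ratios were 0.30, -0.99, 0.07 and 0.03, with a mean of -0.15 ± 0.58 (SD, n = 4) on 4 arrays and of 0.13 without array 2. The high value lay in the pool with the high stroma and uterine markers, and the part of such tissue in it was not tested.

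Axin2 and Lef1, a feedback scaffold of the beta-catenin destruction complex and a nuclear partner of beta-catenin, differed little between genotypes. Axin2 (chr11:109059707-109059766, plus strand) had log2 levels of 9.88, 9.92, 9.80 and 9.65 in mutant pools, against 10.03, 10.02, 9.97 and 9.71 in control pools. Its log2 ratios were -0.15, -0.11, -0.17 and -0.06, a mean of -0.12 ± 0.05 (SD, n = 4), which was the narrowest spread of the 10 genes. The groups overlapped because pool 4 was low in both.

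The brightest Lef1 probe (chr3:131060609-131060668, plus strand) had log2 levels of 12.68, 12.75, 13.20 and 13.05 in mutant pools, against 12.85, 12.87, 13.20 and 13.15 in control pools. Its log2 ratios were -0.17, -0.12, -0.00 and -0.10, with a mean of -0.10 ± 0.07 (SD, n = 4). A second Lef1 probe, split over chr3:131041424-131059585, averaged 0.06 ± 0.32 through a value of 0.53 on array 2, and -0.09 without it. The remaining probe (chr3:130953629-130953688) was not well above background in any channel and did not pass the filter. The small negative means of Axin2 and Lef1 depended on the scaling of the arrays: with median centring they were 0.16 and 0.33, Fzd1 and Sfrp5 turned positive at 0.32 and 0.08, and Wif1 turned negative at -0.09. Relative to the median of all genes under that centring, 0.23, Axin2 lay at -0.07 and Lef1 at 0.10, while Sfrp2 lay at -0.76, Rspo3 at -0.68 and Dkk3 at 0.69. On the same scale Fzd1 lay at 0.09, Sfrp5 at -0.15 and Wif1 at -0.32, so Sfrp5 was positive only through the shift of all genes.

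**Figure D4:**
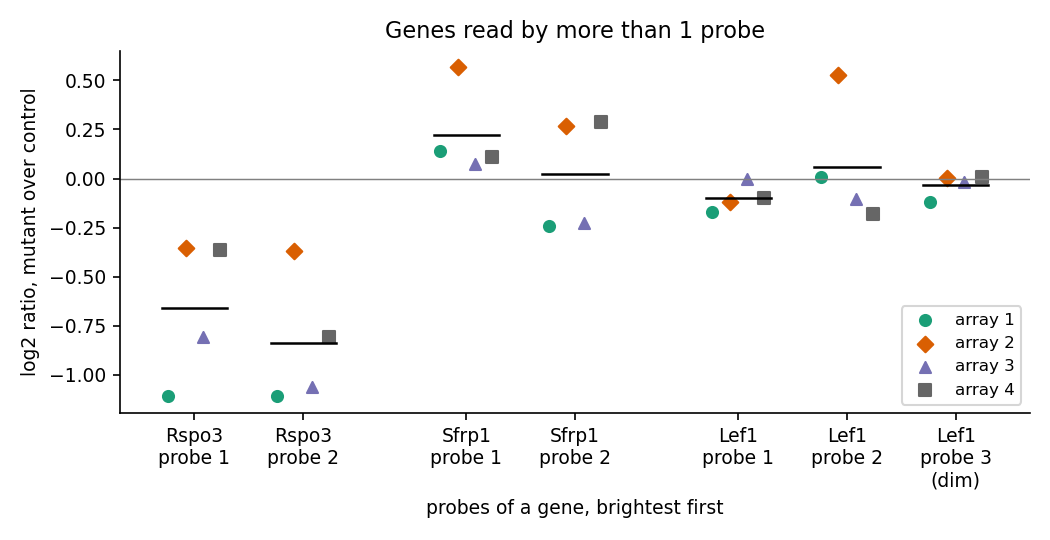
Log2 ratio of mutant over control for every probe of the genes read by more than 1 probe, brightest first, with 1 point per array and the mean as a line. Both Rspo3 probes are below 0 on all 4 arrays, whereas the second Sfrp1 probe and the second Lef1 probe have both signs and the brightest of each gene keeps 1 sign, positive for Sfrp1 and negative for Lef1.

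Genes with ratios closest to those of Rspo3 over the 4 arrays, by Euclidean distance between the log2 ratios, were Itgb8 at a distance of 0.353, Pkia at 0.399 and Trp53inp1 at 0.429. Itgb8 encodes an integrin beta chain, Pkia an inhibitor of protein kinase A, and Trp53inp1 a p53-inducible nuclear protein. For Sfrp2 the closest were Col9a3, a collagen IX chain, at 0.266, Cidea at 0.295 and Lrrn2 at 0.328. Col9a3 averaged -0.68 ± 0.11 in log2 ratio and Cidea -0.77 ± 0.06, both steadier across arrays than Sfrp2.

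The wider pathway was set beside the 10 genes through lists of ligands, receptors, inhibitors, cytoplasmic components, nuclear factors and targets. Of 94 further Wnt genes listed, 86 passed the filter. In limma none of the 86 passed an adjusted p of 0.05 on 4 arrays, where 0.00524% of all tested genes did. At an unadjusted p under 0.05 there were 13 of the 86, or 15.1%, of which 8 were higher and 5 lower, beside 14.6% of all tested genes. Without array 2, none of the 86 passed the adjusted threshold either, where 0.33% of all genes passed as lower and 0.681% as higher. At an unadjusted p under 0.05 there were then 23 of the 86, or 26.7%, beside 23.2% of all genes. Both shares lay near those of all genes. Positive and negative means were evenly split, at 43 each, and the median log2 ratio was -0.003 beside 0.001 over all tested genes. On all 4 arrays 15 of the 86 were higher and 9 lower, beside 12.3% and 12.6% of all tested genes. With median centring, 72 of the 86 were positive and their median was 0.26, beside 0.23 over all genes. Wnt3a, Wnt8a, Wnt8b, Wnt10b, Rspo4, Dkk4, Cer1 and Kremen2 did not pass the filter.

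**Figure D5:**
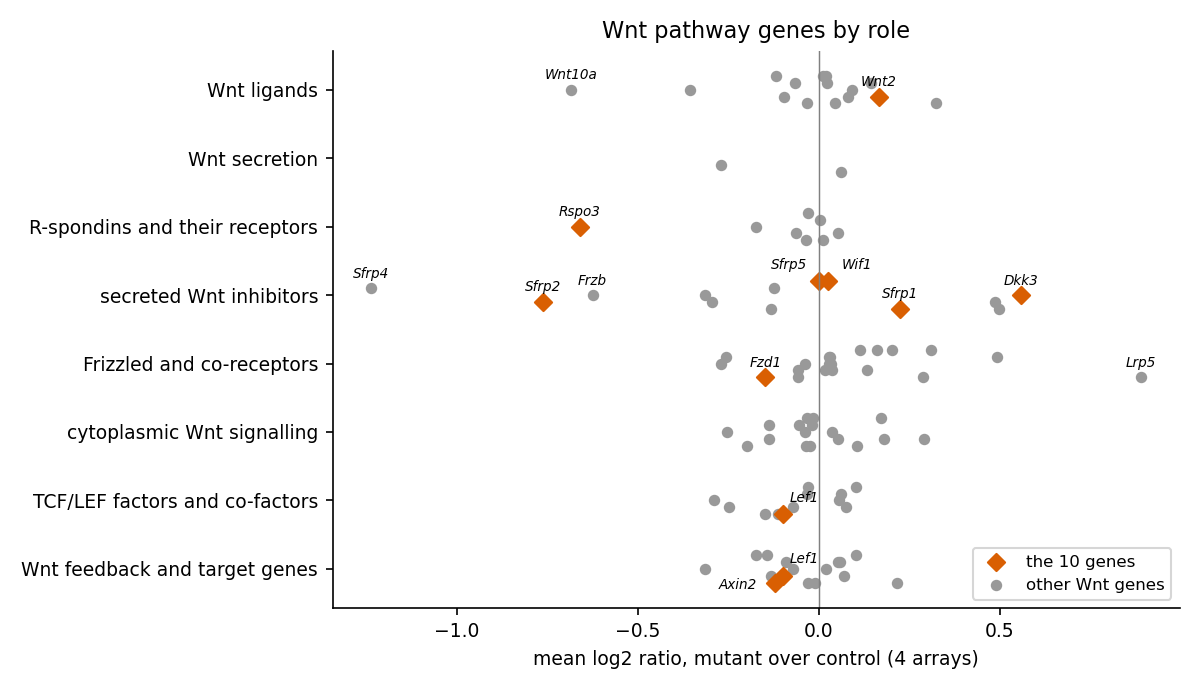
Mean log2 ratio of mutant over control on 4 arrays for Wnt pathway genes grouped by role, with the 10 genes as diamonds and the others as grey circles. Means run between -1.24 for Sfrp4 and 0.89 for Lrp5, and the Wnt feedback and target genes lie between -0.31 for Notum and 0.22 for Sp5.

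Of the ligand list, Wnt9a, known for its expression in heart valve endocardium, had log2 ratios of 0.21, 0.06, 0.58 and 0.45, with a mean of 0.32 ± 0.24 and a limma adjusted p of 0.269. Wnt7a averaged 0.14 ± 0.11 and Wnt2b 0.09 ± 0.06. Wls, the carrier that brings Wnt ligands to the cell surface, averaged -0.27 ± 0.24, and -0.17 without array 2. Its mutant pools were all below its control pools after loess, at a limma adjusted p of 0.333, but with median centring the mean was 0.21, which was -0.02 relative to the median of all genes. A second Wls probe gave -0.18, -0.17, 0.39 and 0.07, with a mean of 0.03 ± 0.27.

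In the list of R-spondins and their receptors, no gene besides Rspo3 kept 1 sign on all 4 arrays. Rspo1 averaged 0.01 ± 0.41 (SD, n = 4). Rspo2 had log2 levels of 8.45, 9.54, 6.86 and 7.05 in mutant pools, against 7.83, 6.91, 7.85 and 9.56 in control pools, and so ran opposite ways on different arrays. Its log2 ratios were 0.62, 2.63, -0.99 and -2.51, with a mean of -0.06 on 4 arrays and of -0.96 without array 2. Rspo2 was singled out after its values were seen.

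Among secreted inhibitors, Frzb, a further Frizzled-related protein gene expressed in cushions, was lower on all 4 arrays like Sfrp2. Its log2 levels were 8.36, 8.77, 8.60 and 8.71 in mutant pools, against 8.78, 10.07, 9.12 and 8.96 in control pools, without overlap between the groups. The mean log2 ratio was -0.62 ± 0.47 with a limma adjusted p of 0.243, and -0.40 without array 2, since control pool 2 was the highest pool. Sost, an LRP antagonist, averaged 0.50 ± 0.27 (adjusted p = 0.187), although its second probe averaged 0.08 ± 0.10. Notum, a lipase that inactivates Wnt ligands and is itself a Wnt target, averaged -0.31 ± 0.08 and had the lowest adjusted p of the 86 genes, 0.154. Its second probe averaged -0.06 ± 0.10 and was positive on array 2. Sfrp4, singled out after its values were seen, had log2 levels of 6.94, 9.93, 7.95 and 6.98 in mutant pools, against 7.36, 14.86, 7.44 and 7.09 in control pools. Its mean of -1.24 thus rested on control pool 2, the pool high in stroma and uterine markers, whose part in it was not tested. Wnt10a and Wnt6 of the ligand list were likewise highest in control pool 2, at 11.81 and 10.11.

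Lrp5, a Wnt co-receptor gene, had the highest mean of the 86. Its log2 levels were 9.17, 9.56, 11.06 and 10.61 in mutant pools, against 8.98, 8.90, 9.39 and 9.57 in control pools. Mutant pools 3 and 4 were high, and mutant pools 1 and 2 lay within the range of the control pools. The mean log2 ratio was 0.89 ± 0.63 (limma adjusted p = 0.218). Fzd5 averaged 0.31 ± 0.21 and Vangl1, a planar polarity gene, -0.27 ± 0.11. The second probe that passed the filter averaged 0.13 ± 0.21 for Fzd5 and -0.01 ± 0.39 for Vangl1, with both signs for each.

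By their brightest probes, intracellular components differed little. Gsk3b, singled out after its values were seen, averaged -0.25 ± 0.28 by its brightest probe. Its second probe averaged 0.48 ± 0.30 and was positive on all 4 arrays. The kinase gene Csnk1d averaged 0.29 ± 0.16, with 3 of its 4 probes between 0.29 and 0.38 and the remaining probe at 0.00. Prickle2 averaged -0.20 ± 0.17 and Daam1 0.18 ± 0.09, both of the planar polarity branch. Their second probes past the filter averaged 0.06 ± 0.59 for Prickle2 and 0.20 ± 0.34 for Daam1, again with both signs. Of the nuclear factors, Tcf7l1, a TCF that often represses, averaged -0.29 ± 0.17, and the co-repressor genes Tle2 and Tle3 averaged -0.15 ± 0.14 and 0.07 ± 0.02. A second Tcf7l1 probe averaged -0.08 ± 0.09 and a second Tle3 probe 0.06 ± 0.14. The target list held 14 tested genes beyond Axin2 and Lef1, and none of the 14 passed the threshold in limma. Of these, Tnfrsf19 averaged -0.14 ± 0.18, with a second probe at 0.00 ± 0.09. With median centring the means of Vangl1, Prickle2, Tcf7l1, Tle2 and Tnfrsf19 turned positive together with the median of all genes. Relative to that median they lay at -0.04, -0.19, -0.07, -0.07 and 0.04. The positive means of Wnt7a and Wnt2b turned negative with that centring, at -0.32 and -0.25 relative to the median of all genes. Both genes were dim, at a mean log2 intensity of 6.33 and 6.63, and median centring leaves any trend with brightness in place.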

How the data were processed

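Gene expression was measured on 4 two-colour Agilent arrays, each setting 1 Tbx3 mutant pool (Cy5) against 1 wild type pool (Cy3); the labels call the 4 pairs biological replicates. The deposited scanner files, made with Agilent Feature Extraction 9.5.1 per the submitters' processing notes, hold spot intensity and local background intensity in each channel, the authors' log10 ratio of red over green, and flags. The deposited series table holds the same log10 ratio, with a median of 0 on each array. All arrays were on 1 slide and 1 scan, per the file headers.

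The intensities were corrected by normexp (offset 50) and normalised by loess within arrays, with control spots at weight 0, in limma 3.58.1 (R 4.3.3). Of 41174 probes, the 28794 were kept that the scanner software marked well above background, in either channel, on 3 or more arrays, and the brightest probe stood for a gene (19091 genes). Log2 ratios were tested against 0 by lmFit and eBayes, with Benjamini-Hochberg adjustment over all genes and a threshold of 0.05. Channel levels are log2 values after loess and quantile normalisation of the average intensity. The number of arrays limits the precision. Median signals were 175.1 to 232.5 in mutant and 117.9 to 133.5 in control channels.

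Probes were named through RefSeq (GRCm38.p6) by accession (22951), symbol (6659) or synonym (3109), and 8455 kept the file's name. The genes and lists were chosen with earlier results of these data known. Named were all probes of the 10 genes, Tbx3, and per pathway list the 3 genes with the largest absolute mean among those with 1 sign on all 4 arrays. The 2 brightest genes per marker list and the 3 nearest genes to Rspo3 and Sfrp2 were chosen likewise, and only marker genes a result turns on are printed. The fit was tested on simulated data. Alternatives were other ratios, scalings, filters, probe rules, array weights and leaving out each array.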

Additional observations from a re-analysis of the deposited data

Results flagged for a closer look

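Among 45 groups of 4 values checked for a sample far from the others, 2 were past Dixon's 95% critical value, about as many as chance gives at 1 in 20. Sfrp1 had a log2 ratio of 0.57 on array 2, against 0.08 to 0.14 on the other arrays. The dim Tbx3 probe had a log2 level of 6.45 in mutant pool 1, against 6.29 to 6.30 in the other mutant pools, and it was well above background in 1 of 4 mutant pools. That probe does not stand for the gene.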

How the results depend on the processing

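The count of genes past the threshold, 1 with the settings of the report, was 3 with the authors' deposited log ratio and 3 with the deposited series table. It was 0 without background subtraction, 0 with the mean over the probes of a gene and 0 with each probe as its own row. It was 7772 with median centring (7202 higher and 570 lower), 1574 with array weights (876 higher and 698 lower) and 191 with no replicate block, the channels being treated as separate samples (129 higher and 62 lower). Leaving out an array gave 0 to 193 genes, the highest without array 2. The Tbx3 log2 ratio missed the threshold at -1.34 with either deposited ratio (limma adjusted p = 0.0547), at -1.35 without background subtraction (adjusted p = 0.0538), at -0.74 with the mean over probes (adjusted p = 0.120) and at -1.35 with each probe as its own row (adjusted p = 0.0504), and ran between -1.39 and -1.32 when an array was left out. Its adjusted p was then 0.346 without array 1, 0.602 without array 3 and 0.510 without array 4, and it kept its call without array 2. With median centring, where the median of all genes was 0.23, the Tbx3 log2 ratio was -0.89 (limma adjusted p = 0.00277). Further Wnt genes past the threshold, 0 in the report, numbered 30 with median centring (28 higher and 2 lower) and 7 with array weights (3 higher and 4 lower). Of the 10 genes, 2 were lower and 4 higher on all 4 arrays with median centring, and 1 was higher with the mean over probes and 1 with each probe as its own row. The count lower was 3 with each of those probe rules and with the running median removed. Without array 2, the count higher on all of the arrays left, a looser rule, was 3. The causes were not tested. No alternative turned the direction of Rspo3, Sfrp2 or Dkk3. The single dye orientation, the 4 arrays and the shared slide limit every value, and the genes' own ratios guided their choice.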
